A study of Mus musculus with 8 samples.

Results

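The 34 genes described here are genes that interferons switch on, measured by RNA sequencing in mouse lung. They were taken by symbol, each symbol gave 1 of the 52636 Ensembl gene identifiers of the count tables, and all 34 were among the 20546 genes with enough counts to be tested. They fall by role into 4 sensors of RNA and DNA, 4 transcription factors, 8 genes of the IFIT and OAS families, 9 other antiviral effectors, 2 genes of feedback and protein modification and 7 GTPases of the GBP and IRG families. Lungs of male C57BL/6 mice gave 8 libraries, 2 for each of 4 groups. The control mice were given PBS into the trachea, and the COPD mice model, a mouse model of chronic obstructive pulmonary disease, received porcine pancreatic elastase (PPE) at 10 weeks of age and then lipopolysaccharide (LPS) from 12 weeks. Within each, mice ate a control diet or a diet with 2% TJ-41, the Japanese herbal medicine hochuekkito, from 8 weeks of age. The age at which this RNA was taken, the number of mice behind a library and whether replicates were separate animals are not given in the sources used here, so p-values measure only the spread between these libraries, which may be technical.

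Interferons are secreted proteins that bind receptors on nearby cells. Type I interferons (alpha and beta) and type III interferons (lambda) signal through JAK kinases to a complex that holds STAT2 and IRF9 and binds the interferon-stimulated response element (ISRE) in DNA. Type II interferon (gamma), made mainly by T cells and natural killer (NK) cells, acts through gamma-activated sites (GAS) in DNA, and it also raises IRF1, whose own site resembles the ISRE. The induced proteins sense viral RNA, block viral growth, tag or untag other proteins, or attack vacuoles that hold microbes.

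Promoters were at hand for 24 of the 34 genes (RefSeq, GRCm38.p6, from 250 bases before to 50 bases after each gene start). The ISRE pattern searched was GAAANNGAAA on either strand, where N is any base, and it was found in 15 of these 24 genes against 3.99% of the 27025 genes with a promoter. The GAS pattern TTCNNNGAA, which can share letters with the first, was found in 6 of the 24 against 9.55% of all genes. A match describes letters in the window and is not a measured binding site. The 250 bases before the start are printed for 7 genes, with the ISRE matches in capitals. Gbp5, Gbp2, Igtp and Irgm1 are shown because the GTPases differed most between the libraries, and Isg15, Bst2 and Ifit3 because they were highest in 1 library that stood apart. In the order printed, the windows lie at chr3:142496684-142496933 on the plus strand, chr3:142620413-142620662 on the plus strand, chr11:58199306-58199555 on the plus strand, chr11:48871421-48871670 on the minus strand, chr4:156200819-156201068 on the minus strand, chr8:71537473-71537722 on the minus strand and chr19:34583279-34583528 on the plus strand.
Gbp5: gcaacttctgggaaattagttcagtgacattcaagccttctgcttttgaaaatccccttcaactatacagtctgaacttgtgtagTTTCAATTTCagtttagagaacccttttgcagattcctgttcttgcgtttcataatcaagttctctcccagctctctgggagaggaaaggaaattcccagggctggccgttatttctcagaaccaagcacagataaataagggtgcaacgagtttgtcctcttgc
Gbp2: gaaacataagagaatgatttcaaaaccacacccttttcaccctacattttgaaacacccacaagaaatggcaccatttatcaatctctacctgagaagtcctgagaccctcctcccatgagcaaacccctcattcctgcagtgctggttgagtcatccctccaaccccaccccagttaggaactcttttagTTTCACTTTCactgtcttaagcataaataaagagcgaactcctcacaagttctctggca
Igtp: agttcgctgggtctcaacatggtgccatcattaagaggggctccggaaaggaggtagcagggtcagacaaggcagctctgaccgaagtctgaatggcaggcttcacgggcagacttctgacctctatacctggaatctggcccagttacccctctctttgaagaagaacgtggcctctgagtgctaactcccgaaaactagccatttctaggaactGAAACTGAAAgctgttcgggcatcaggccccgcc
Irgm1: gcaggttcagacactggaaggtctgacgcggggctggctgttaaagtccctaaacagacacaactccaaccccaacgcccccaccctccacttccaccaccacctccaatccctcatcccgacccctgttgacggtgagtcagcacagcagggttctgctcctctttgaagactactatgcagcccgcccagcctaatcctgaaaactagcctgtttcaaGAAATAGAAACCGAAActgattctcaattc
Isg15: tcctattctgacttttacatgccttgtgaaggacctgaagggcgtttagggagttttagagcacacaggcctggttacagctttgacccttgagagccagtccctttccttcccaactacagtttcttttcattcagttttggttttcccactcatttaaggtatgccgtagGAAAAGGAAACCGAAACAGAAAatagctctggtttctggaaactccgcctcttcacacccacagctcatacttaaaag
Bst2: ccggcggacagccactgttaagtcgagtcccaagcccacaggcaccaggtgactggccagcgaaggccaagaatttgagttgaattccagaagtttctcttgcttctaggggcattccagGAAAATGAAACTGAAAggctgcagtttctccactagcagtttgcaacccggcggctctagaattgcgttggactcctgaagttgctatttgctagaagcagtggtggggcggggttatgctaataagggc
Ifit3: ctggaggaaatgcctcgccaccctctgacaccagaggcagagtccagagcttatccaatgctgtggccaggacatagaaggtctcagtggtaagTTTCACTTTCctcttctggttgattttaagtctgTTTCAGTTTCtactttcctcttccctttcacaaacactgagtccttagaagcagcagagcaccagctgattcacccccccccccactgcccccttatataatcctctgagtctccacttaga
Igtp and Irgm1 carried their matches within 34 bases of the start, Gbp2 had its match 59 bases upstream, and the match of Gbp5 lay 165 bases upstream. The matches of Gbp5, Gbp2 and Ifit3 were on the strand opposite to the gene, and those of the other 4 genes on its own strand. Isg15 held 3 overlapping matches, while Irgm1 and Bst2 held 2 overlapping ones and Ifit3 held 2 separate ones.

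The libraries held 18767295 to 20888042 counts, and levels are given as CPM (counts per 1000000) with TMM scaling. A gene without a single read could have been at up to 0.153 to 0.162 CPM, the level of 3 counts, a limit that covers counting error only. Each member had between 38 and 5837 counts in every library. Levels between genes are compared as mean CPM per kilobase of merged exon. On that scale Gbp2, a GTPase that coats microbe-containing vacuoles, was highest at 67.1 and Oas3, a sensor of double-stranded RNA that makes the activator of RNase L, was lowest at 0.487. Bst2 (58.2 CPM per kilobase), also called tetherin, which holds budding viruses to the cell, and Ifit3 (50.3 CPM per kilobase), of a family that binds foreign RNA, came next after Gbp2. In the order of levels the ranges of neighbours over the 8 libraries overlapped in 31 of 33 pairs. Irf9, a DNA-binding part of the complex that binds the ISRE, lay above Ifih1 (MDA5), a sensor of long viral RNA, without overlap, and Oasl1 lay above Oas3. Reads of the IFIT, OAS, GBP and IRG families can be shared between close relatives, so the values of single family members are less certain than those of the other genes.

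Across libraries the highest level of a member was 1.31 to 4.53 times its lowest, with a median of 1.92. The GTPases varied most, with a median of 3.31. Of the 34 members, 11 had their highest level in replicate 1 of the PBS libraries on the control diet (9.12% of all genes tested did so), 11 in replicate 1 of the control diet COPD mice model (13.2%), and 7 in replicate 2 of that group (29.2%). The other 5 were highest in a TJ-41 library. The lowest level was in replicate 2 of the PBS libraries on TJ-41 for 12 members (14.97% of all genes) and in replicate 2 of the PBS libraries on the control diet for 8 (7.82%).

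**Figure D1:**
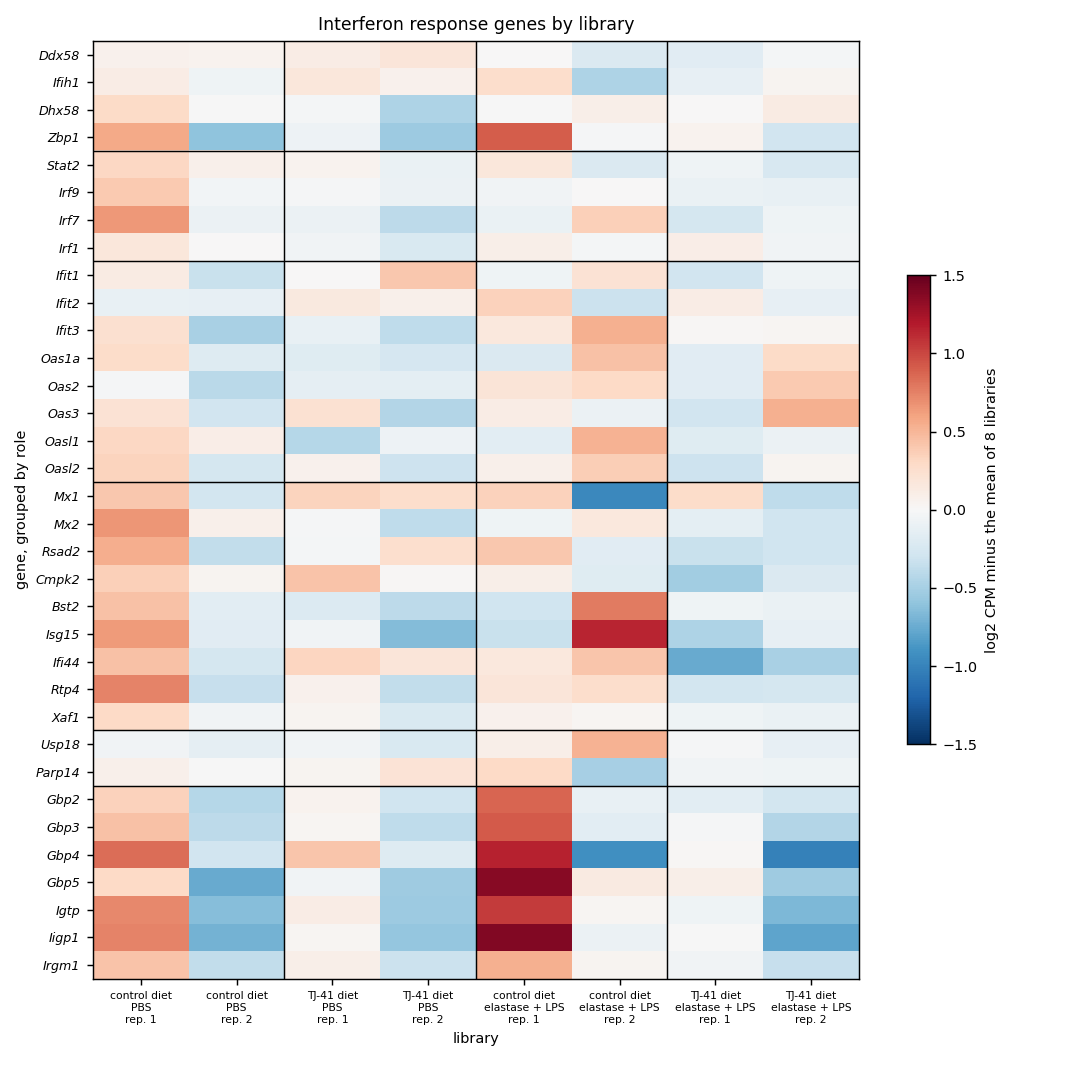
Level of each of the 34 genes (rows, grouped by role with black lines) in each of the 8 libraries (columns, 2 per group), as log2 CPM minus the gene's mean over the libraries. The bottom block of 7 GTPases is red in replicate 1 of both control diet groups and blue in replicate 2 of 3 groups, and Isg15 and Bst2 are red in replicate 2 of the control diet COPD mice model.

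Replicate 2 of the control diet COPD mice model stood apart from the other libraries over all genes. The SD of its log2 deviation was 0.677 against 0.339 to 0.450 in the other 7. The labelled tissue was checked with markers, and 7 lung epithelial genes such as Sftpc and Scgb1a1 summed to 31359 to 66176 CPM, with the highest sum in that library. Heart muscle markers (5 genes) summed to 217 to 588 CPM. Liver markers (3 genes) summed to 33.9 CPM in replicate 2 of PBS on the control diet and to at most 1.04 CPM elsewhere. Alveolar macrophage markers (9 genes) summed to 685 to 840 CPM in the PBS libraries and 1033 to 1634 CPM in the COPD mice model. Plasma cell markers (9 genes) summed to 629 to 1040 CPM and 1176 to 3089 CPM, and clock genes (15 genes) to 694 to 936 CPM and 1829 to 1890 CPM. The clock sum joined genes that moved in opposite directions. With both diets averaged, Dbp and Per3 had log2 fold changes of 3.89 and 2.03, and Arntl and Npas2 of -2.93 and -2.71. The macrophage, plasma cell and clock sums differed between PBS and the COPD mice model without overlap, while the epithelial, heart and liver sums overlapped. The part of these cells and genes in the comparisons below was not tested. In whole lung, fewer cells of a type and less RNA per cell cannot be told apart.

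The first question was whether PPE and LPS moved these genes on the control diet. No member passed the call rule, a false discovery rate under 0.05 with a log2 fold change beyond 1 (edgeR quasi-likelihood test, Benjamini-Hochberg adjusted), against 0.122% of all genes. By DESeq2 and by edgeR's exact test the number of members called was also 0. At an unadjusted p under 0.05 there was 1 member by each of these tools. Of the 20546 genes, 1582 (7.7%) were under it by the quasi-likelihood test, 1366 by DESeq2 and 1602 by the exact test. The member was Gbp5, a GTPase that promotes inflammasome assembly. Its level was 47.5 and 22.8 CPM in the PBS libraries and 99.3 and 42.5 CPM in the COPD mice model (replicates 1 and 2). Replicate 2 of the model lay below replicate 1 of PBS, so the groups overlapped. The log2 fold change was 1.01 (SE 0.44, unadjusted p = 0.0485, adjusted p = 0.643, edgeR quasi-likelihood test, Benjamini-Hochberg adjusted). It became 0.27 without replicate 1 of the model, 0.58 without replicate 2 of PBS and 1.64 without replicate 1 of PBS.

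Usp18, which removes ISG15 from proteins and dampens type I receptor signalling, was at 19.1 and 18.1 CPM in the PBS libraries and 20.96 and 28.4 CPM in the control diet COPD mice model. The model lay above PBS without overlap, with a log2 fold change of 0.41 (SE 0.20, adjusted p = 0.707, edgeR's quasi-likelihood test). Without replicate 1 of the model the log2 fold change of Usp18 was 0.61. That fit left 1 library in the group, the one that stood apart over all genes. Oas2, another maker of the RNase L activator, was at 17.5 and 13.4 CPM against 20.3 and 21.9 CPM. Its log2 fold change was 0.45 (SE 0.23, adjusted p = 0.735, edgeR's quasi-likelihood test). These were the only 2 members higher in both libraries of the model, where 13.6% of all genes were. Ddx58 (RIG-I), a sensor of viral RNA, was the only member lower in both, where 14.1% of all genes were. In this comparison 20 members had a positive and 14 a negative log2 fold change, with 49% of all genes negative, and the median of the members was 0.08. The median went from 0.43 without replicate 1 of PBS on the control diet to -0.13 without replicate 2 of it, so its sign rested on single libraries.

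On the TJ-41 diet the COPD mice model again gave 0 members called against 0.0779% of all genes, and 2 members at an unadjusted p under 0.05 against 6.56% of genes (edgeR's quasi-likelihood test). DESeq2 and edgeR's exact test also called 0 and found 2 at an unadjusted p under 0.05, where they found 1215 and 1337 of the 20546 genes. Both members were lower in the model. Ifi44, an interferon-induced protein that restrains viral growth, was at 12.8 and 11.7 CPM in the PBS libraries on TJ-41 and 6.05 and 7.31 CPM in the model on TJ-41. The groups did not overlap, and the log2 fold change was -0.87 (SE 0.28, unadjusted p = 0.0115, adjusted p = 0.588, edgeR quasi-likelihood test, Benjamini-Hochberg adjusted). Fitting only these 2 groups gave Ifi44 an adjusted p of 0.0387 with edgeR's quasi-likelihood test, the lowest among the alternatives. In that fit 716 of 19809 genes had an adjusted p under 0.05. Cmpk2, a mitochondrial nucleotide kinase that lies beside Rsad2 in the genome, was at 34.8 and 26.1 CPM against 18.1 and 22.2 CPM. Its log2 fold change was -0.60 (SE 0.22, unadjusted p = 0.0240, adjusted p = 0.688, edgeR's quasi-likelihood test).

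Ddx58 followed by p in this comparison, at 114.7 and 120.6 CPM in PBS and 94.3 and 103.5 CPM in the model, with a log2 fold change of -0.25 (SE 0.15). In both libraries of the model 4 members were higher (28.5% of all genes were) and 8 were lower (27.9% of all genes were). Of the 34 members 14 had a positive and 20 a negative log2 fold change, with 50.2% of all genes negative, and their median was -0.06, which became 0.16 without replicate 1 of PBS on TJ-41. With both diets averaged, 0 members were called against 0.443% of genes, and 1 had an unadjusted p under 0.05 against 10.4% of genes. DESeq2 also called 0 and found 1, where it found 1962 of the 20546 genes. The member was Cmpk2 again, with a log2 fold change of -0.42 (SE 0.16, adjusted p = 0.382, edgeR's quasi-likelihood test). The log2 fold change of Cmpk2 ran over the alternatives from -0.52 to -0.31. Oas2 (0.36, SE 0.17) and Ifit3 (0.35, SE 0.17) followed by p. In the averaged comparison 19 members were positive and 15 negative, with 50.2% of all genes negative, and the median was 0.05. With libraries left out in turn the median ran from -0.08 to 0.16. Without replicate 2 of PBS on the control diet 13 members were positive and 21 negative, and without replicate 1 of the model on the control diet 14 were positive and 20 negative.

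The next question was what TJ-41 did in mice that had received PBS only. The edgeR quasi-likelihood test called no gene at all, so the background was 0%. No member had an unadjusted p under 0.05, where 1.64% of all genes did (edgeR's quasi-likelihood test), and DESeq2 and the exact test also gave no member. The 3 members with the lowest p were Irf7, Mx2 and Dhx58. Irf7, the factor that amplifies type I interferon genes, was at 31.5 and 19.003 CPM on the control diet and 18.9 and 15.4 CPM on TJ-41, with a log2 fold change of -0.56 (SE 0.27, adjusted p = 0.996, edgeR's quasi-likelihood test). Its libraries on TJ-41 lay just below those on the control diet.

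Mx2, a relative of the antiviral GTPase Mx1 whose gene is damaged in most laboratory strains, was at 6.49 and 4.31 CPM on the control diet and 4.05 and 3.14 CPM on TJ-41. Its log2 fold change was -0.59 (SE 0.30). Dhx58 (LGP2), which tunes the RNA sensors, had a log2 fold change of -0.38 (SE 0.23). Among PBS mice 7 members were lower in both TJ-41 libraries (19.1% of all genes were) and 2 were higher (also 19.1%). By sign 25 members were lower and 9 higher, with 50.3% of all genes lower, and the members' median was -0.20. Without replicate 1 of the PBS libraries on the control diet the median was 0.20 and 22 members were higher. Without replicate 2 of the PBS libraries on TJ-41 the median was -0.04, with 16 members higher and 18 lower. The direction in PBS mice thus rested on single libraries.

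In the COPD mice model TJ-41 also gave 0 members called, against 0.00487% of genes, which is 1 gene. At an unadjusted p under 0.05 there were 2 members against 4.1% of all genes (edgeR's quasi-likelihood test), while DESeq2 and the exact test called 0 and found 4, where they found 703 and 841 of the 20546 genes. Ifi44 was at 11.4 and 13.7 CPM on the control diet and at 6.05 and 7.31 CPM on TJ-41, without overlap. The log2 fold change was -0.91 (SE 0.28, unadjusted p = 0.00930, adjusted p = 0.991, edgeR quasi-likelihood test, Benjamini-Hochberg adjusted). This comparison and that of the model on TJ-41 against PBS share the 2 libraries in which Ifi44 was lowest.

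Gbp5 was at 99.3 and 42.5 CPM on the control diet and 41.1 and 26.6 CPM on TJ-41 in the COPD mice model. Both TJ-41 libraries lay below both control diet libraries, which are also the libraries behind its higher value for PPE and LPS on the control diet. The log2 fold change was -1.07 (SE 0.45, unadjusted p = 0.0399, adjusted p = 0.991, edgeR's quasi-likelihood test). It became -0.33 without replicate 1 of the control diet model and -1.56 without replicate 2 of it. Iigp1, an IRG GTPase that disrupts vacuoles of intracellular parasites, was at 287 and 103 CPM against 108.9 and 63.4 CPM. Its groups overlapped, and the log2 fold change was -1.18 (SE 0.55, unadjusted p = 0.0621), which the same omissions moved to -0.26 and -1.74. Over the members 30 were lower and 4 higher on TJ-41 by sign, with 52.4% of all genes lower, and their median was -0.32 against -0.01 over all genes tested.

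Of the 34 members, 15 were lower in both TJ-41 libraries of the COPD mice model than in both control diet libraries, where 14.9% of all genes were, and 0 were higher, where 14.1% of all genes were. They were Irf9, Ifit1, Ifit3, Oasl2, Mx2, Rsad2, Cmpk2, Ifi44, Rtp4, Xaf1, Usp18, Gbp2, Gbp5, Igtp and Irgm1. They came from 5 of the 6 roles, the sensors being the exception. The members share their libraries and move together, so they are not independent counts. In this comparison the summed markers of T cells, plasmacytoid dendritic cells and heart muscle were also lower without overlap. T cell markers were at 131 and 128 CPM against 114.8 and 85.6 CPM on TJ-41. The sums of monocyte and interstitial macrophage markers and of clock genes were higher without overlap, and the other marker sums overlapped. Their part was not tested. The median kept its sign when any of the 4 libraries compared was left out, between -0.38 and -0.17. Without replicate 1 of the model on the control diet, Isg15 was called with a log2 fold change of -1.41 and an adjusted p of 0.0442 by edgeR's quasi-likelihood test, where 728 genes were called in all instead of 1. For Isg15 in this comparison that fit rests on the library that stood apart, which held 10.3 CPM of it against 3.70 CPM in the library left out.

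The difference of the diet effect between the COPD mice model and PBS mice passed the call rule for 0 members, with a background of 0%, and 1 member had an unadjusted p under 0.05 against 3.27% of all genes. DESeq2 also called 0 and found 1, where it found 519 of the 20546 genes. For Ifi44 the difference was -1.04 (SE 0.39, unadjusted p = 0.0253, adjusted p = 0.999, edgeR's quasi-likelihood test). Ifit1 (-0.56, SE 0.34) and Gbp5 (-0.93, SE 0.63) followed by p. By sign 23 differences were negative and 11 positive, with 51.3% of all genes negative, and the median was -0.17. Without replicate 2 of PBS on the control diet 20 were positive and 14 negative with a median of 0.07, and without replicate 1 of the model on the control diet 19 were positive and 15 negative with a median of 0.03. A p that misses the threshold does not show that the 2 diet effects were alike.

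Averaged over both models, TJ-41 gave 0 members called with a background of 0%, and 0 with an unadjusted p under 0.05 against 2.48% of genes. DESeq2 called 0 and found 5, where it found 452 of the 20546 genes. With a replicate block 6 members had an unadjusted p under 0.05, where 419 of 20546 genes did, and with all genes that had at least 1 count 8 members did, where 1005 of 35466 genes did. By sign 27 members were lower and 7 higher, with 50.2% of all genes lower, and the median was -0.25. Irf7 had a log2 fold change of -0.43 (SE 0.19, unadjusted p = 0.0527, adjusted p = 0.973, edgeR's quasi-likelihood test), Isg15 -0.73 (SE 0.34) and Rtp4 -0.46 (SE 0.22). Isg15 encodes a ubiquitin-like tag, and Rtp4 is a chaperone that also restrains viruses. The averaged median stayed negative when any library was left out, between -0.40 and -0.11.

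**Figure D2:**
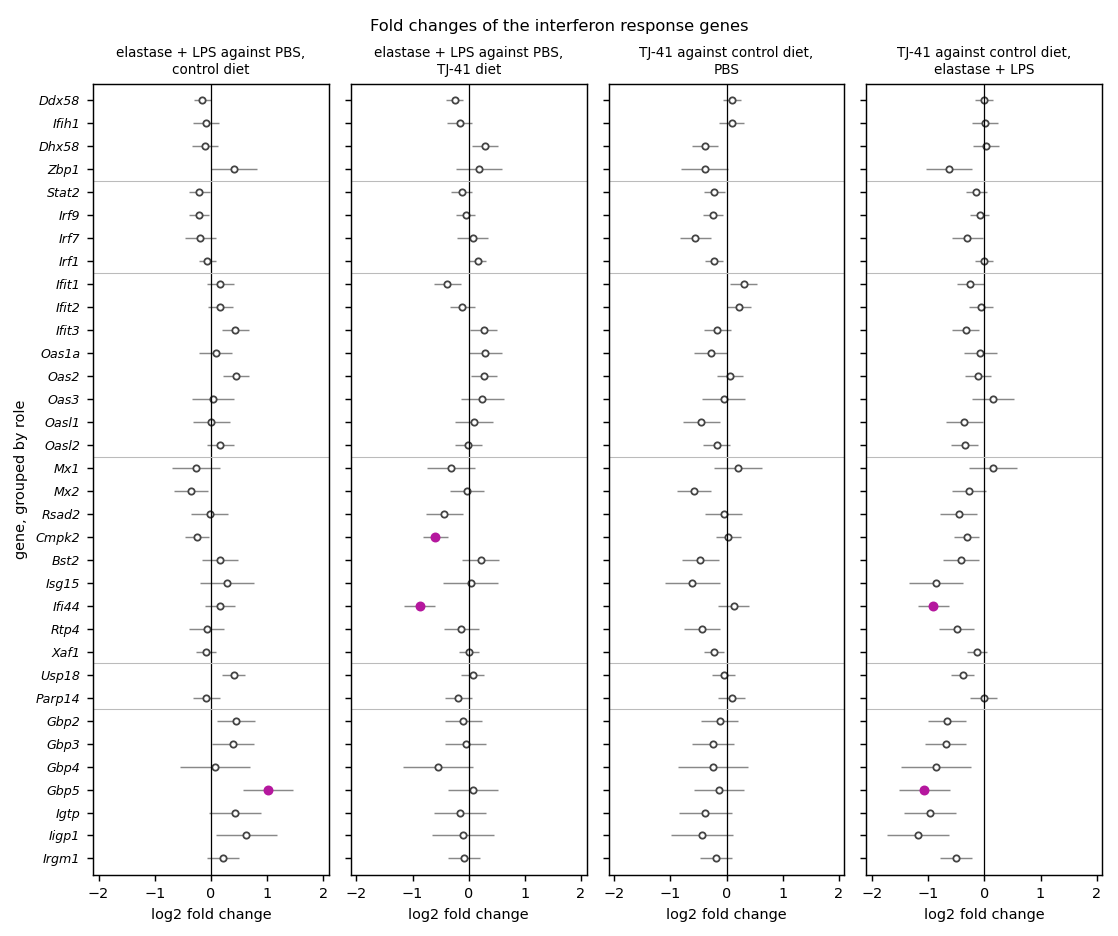
Log2 fold change (x axis) of each of the 34 genes (rows, grouped by role) in 4 comparisons, with bars of 1 standard error from edgeR's fit and filled points for an unadjusted p under 0.05. In the right panel 30 of 34 points lie left of 0, and the 7 GTPases at the bottom lie between -1.18 and -0.50.

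The 7 GTPases, 4 guanylate-binding proteins (GBPs) and 3 immunity-related GTPases (IRGs), are known above all as interferon gamma targets and act against microbes inside cells. In each of the 4 groups, replicate 1 exceeded replicate 2 for all 7. Iigp1 was at 184 and 67.2 CPM in PBS on the control diet, 112 and 73.3 CPM in PBS on TJ-41, 287 and 103 CPM in the control diet model, and 108.9 and 63.4 CPM in the model on TJ-41 (replicates 1 and 2). Gbp4 was at 246 and 112 CPM, 183 and 119.8 CPM, 304 and 72.6 CPM, and 139 and 68.0 CPM in the same order. Igtp was at 102 and 39.7 CPM, 66.5 and 42.4 CPM, 128 and 62.9 CPM, and 59.0 and 38.7 CPM. For these 3 genes the replicates of both control diet groups lay more than 2-fold apart. Igtp encodes an IRG protein that guards the cell's own membranes.

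Gbp2 showed the same order at 205 and 120.5 CPM, 168 and 131 CPM, 295 and 150.1 CPM, and 146 and 134 CPM. Over the 7 GTPases the median log2 difference between replicates 1 and 2 was 1.06 in PBS on the control diet, 0.48 in PBS on TJ-41, 1.08 in the control diet model and 0.61 in the model on TJ-41. Replicate 1 was the higher in all 4 groups for 13 of the 34 members, where 4.86% of all genes tested did so. The other 6 were Zbp1, Stat2, Irf1, Ifit2, Mx1 and Xaf1. Zbp1 is a sensor of nucleic acids in Z form, and Irf1 is the gamma-induced factor named above. No member was lower in replicate 1 in all 4 groups, where 5.35% of all genes tested were.

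**Figure D3:**
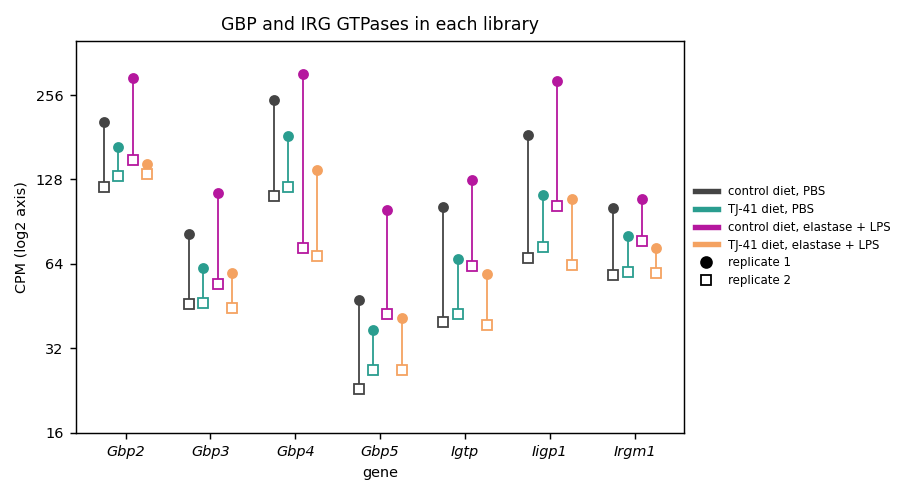
CPM on a log2 axis (y) of the 7 GTPases (x), with filled circles for replicate 1, open squares for replicate 2, a line joining the 2 libraries of a group and a colour for each group. In each of the 28 pairs the circle lies above the square, and replicate 1 of the control diet COPD mice model is highest for all 7 genes.

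The labels do not say what libraries with the same number share. Over all genes the replicate differences of the 4 groups correlated between -0.23 and 0.11, while over the 34 members they correlated between 0.26 and 0.72, which describes these genes with points that share libraries. NK cell markers (7 genes, each detected) summed in replicates 1 and 2 to 100.4 and 68.0 CPM, 77.6 and 72.0 CPM, 105 and 29.1 CPM, and 39.5 and 48.9 CPM in the same order of groups. They were higher in replicate 1 in 3 of the 4 groups. T cell markers (8 genes, each detected) summed to 84.3 and 78.2 CPM, 87.7 and 83.6 CPM, 131 and 128 CPM, and 114.8 and 85.6 CPM, higher in replicate 1 in all 4. Neutrophil markers (8 genes) summed to 223 and 179 CPM, 267 and 172 CPM, 232 and 73.8 CPM, and 154 and 370 CPM. Alveolar macrophage markers (9 genes) summed to 833 and 700 CPM, 840 and 685 CPM, 1033 and 1634 CPM, and 1375 and 1591 CPM. The part of these cells in the GTPase levels was not tested.

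**Figure D4:**
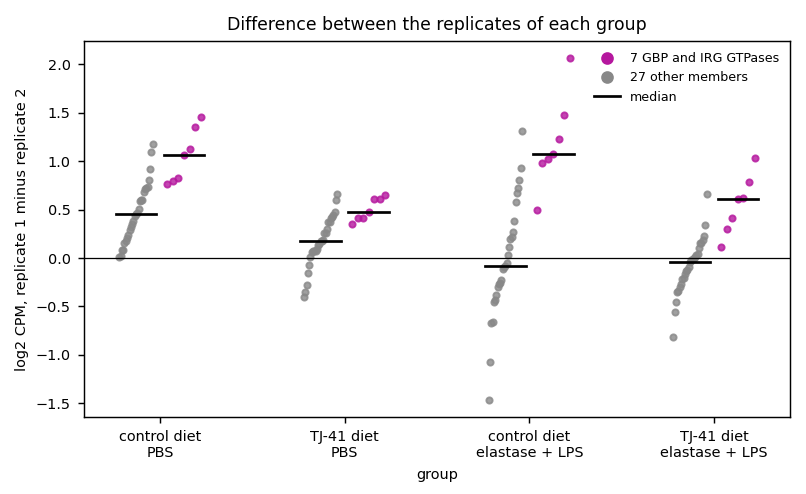
Log2 CPM of replicate 1 minus replicate 2 (y) for each gene in each of the 4 groups (x), with the 7 GTPases in purple, the 27 other members in grey and black bars for medians. All purple points lie above 0, with medians of 1.06, 0.48, 1.08 and 0.61 from left to right.

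Against that spread, the GTPases were lower on TJ-41 by sign in 7 of 7 in PBS mice (median log2 fold change -0.24, median SE 0.44) and in 7 of 7 in the COPD mice model (median -0.87, median SE 0.45). Their summed level was 1337 and 562 CPM in the control diet model and 625 and 435 CPM in the model on TJ-41. Without replicate 1 of the model on the control diet, the median in the model became -0.23 with 6 of 7 lower, and the other omissions in this comparison gave -1.39 to -0.61. Without replicate 1 of PBS on the control diet the median in PBS mice became 0.43 with 7 of 7 higher, and without replicate 2 of PBS on TJ-41 it became 0.01 with 4 of 7 higher. On the control diet, PPE and LPS gave a median of 0.43 with 7 of 7 higher, -0.18 with 6 of 7 lower without replicate 1 of the model, and 0.04 with 4 of 7 higher without replicate 2 of PBS. The GTPase directions in PBS mice and for PPE and LPS thus turned on single libraries, while on TJ-41 in the model the direction of the median did not and its size did.

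As a sum the other members varied less. The 27 genes outside the GTPases summed to between 1081 and 1360 CPM, against 435 to 1337 CPM for the 7 GTPases. All 8 IFIT and OAS genes had a positive log2 fold change for PPE and LPS on the control diet, from 0.01 to 0.45. Of all genes 49% were negative, and none of the 8 had an unadjusted p under 0.05. Their median log2 deviation from the mean of the libraries was 0.23 and -0.28 in PBS on the control diet. In the control diet model it was 0.09 and 0.33 (replicates 1 and 2), so the groups overlapped and replicate 2 of PBS was the low library. On TJ-41 in the model 7 of these 8 genes were negative, where 52.4% of all genes were. The 4 transcription factors were all negative on TJ-41 in PBS mice (median -0.23) and in the model (median -0.11). Over all genes 50.3% and 52.4% were negative. In the model the 4 factors ran from -0.304 to -0.006, and only Irf9 among them was lower in both TJ-41 libraries. Irf1 had the narrowest relative range of the members, at 120.4 to 157.7 CPM. Parp14, which attaches ADP-ribose to proteins, was at 119.3 CPM in the library that stood apart and at 162 to 208 CPM in the others.

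Isg15 was at 7.27 and 4.15 CPM in PBS on the control diet, 4.51 and 2.97 CPM in PBS on TJ-41, 3.70 and 10.3 CPM in the control diet model, and 3.39 and 4.29 CPM in the model on TJ-41. Bst2 was at 68.7 and 45.4 CPM, 44.1 and 38.7 CPM, 41.2 and 86.8 CPM, and 48.5 and 47.3 CPM in the same order. Both were highest in replicate 2 of the control diet model, and both have short transcripts, with merged exons of 756 and 903 bases. In that library the deviation of the 34 members from the mean of the other libraries correlated with log2 merged exon length at a Pearson r of -0.66, while over 20517 genes r was -0.19. Among the 7 other libraries r over the members ran from -0.20 to 0.47. These correlations are across genes, which are not independent, and describe the libraries only.

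**Figure D5:**
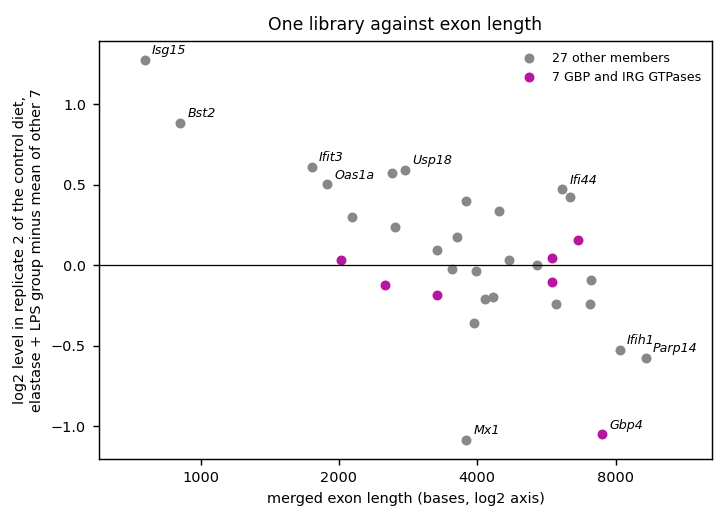
Deviation of each member in replicate 2 of the control diet COPD mice model (y, log2 units, from the mean of the other 7 libraries) against merged exon length in bases (x, log2 axis), with GTPases in purple. Isg15 and Bst2, the shortest, lie highest at 1.28 and 0.88, while Gbp4 and Mx1 lie lowest at -1.05 and -1.08.

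With each library corrected for length and GC content, a step added after the data were seen, the median of the members in the model on TJ-41 was -0.32, 30 of 34 were lower, and 0 members were called in any of the 7 comparisons. The median for PPE and LPS on the control diet was 0.04 with 18 of 34 positive. For TJ-41 in the model 3 members had an unadjusted p under 0.05 after the correction, where 1109 of 20517 genes did. Without it 2 members did, where 842 of 20546 genes did (edgeR's quasi-likelihood test).

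The interferons themselves were at or near 0. Of 9 interferon genes listed, Ifna1, Ifna2, Ifna4, Ifnl2 and Ifnl3 had 0 counts in every library, which allows up to 0.153 to 0.162 CPM a library. Ifnb1 and Ifne had 1 count in a single library, and Ifnk had at most 2. Only Ifng was tested, at 0.42 and 0.36 CPM in PBS on the control diet, 0.26 and 0.27 CPM in PBS on TJ-41, 0.78 and 0.56 CPM in the control diet model, and 1.04 and 0 CPM in the model on TJ-41. Its counts were 0 to 20 a library, and its log2 fold change for PPE and LPS on the control diet was 0.77 (SE 1.02). Markers of plasmacytoid dendritic cells (7 genes), known for abundant type I interferon, summed to 247 to 323 CPM.

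All 6 receptor genes were expressed. Ifngr1 was at 218 to 255 CPM, Ifnar1 at 88.2 to 117.5 CPM, Ifnar2 at 76.3 to 87.5 CPM, Ifngr2 at 71.3 to 112.0 CPM, Il10rb at 82.0 to 127.8 CPM and Ifnlr1 at 20.2 to 27.1 CPM. None of the 6 had an unadjusted p under 0.05 in any comparison. Of 78 other genes of the pathway, 69 were tested, and 0 were called in any of the 7 comparisons (edgeR's quasi-likelihood test). At an unadjusted p under 0.05 in that test, 3 were higher for PPE and LPS on the control diet and 1 was lower for PPE and LPS on TJ-41. For TJ-41 against the control diet, 1 was lower in PBS mice and 1 in the model. In the same order 7.7%, 6.56%, 1.64% and 4.1% of all genes had such a p, and the medians of the pathway genes were 0.04, 0.00, -0.06 and -0.13. Averaged over diets 2 were higher for PPE and LPS, where 10.4% of all genes were under 0.05. For the difference of diet effects 1 was lower, where 3.27% of all genes were under 0.05. Among 37 further interferon-induced genes tested, replicate 1 was higher in all 4 groups for 16, where it was for 4.86% of all genes tested. These included 8 of 8 further GBP and IRG GTPases (Gbp6, Gbp7, Gbp8, Gbp9, Irgm2, Tgtp1, Tgtp2 and Ifi47), a subset chosen after the values were seen.

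The 5 genes outside the list whose levels followed the mean standardized level of the 34 members most closely over the 8 libraries were Gm11945 (Pearson r 0.98), 1810062G17Rik (0.97), Phf11b (0.97), Taf7 (0.97) and Hmgn2-ps1 (0.96). Of these, Phf11b was on the list of further interferon-induced genes. The 8 points are libraries of 4 groups, so r is a description.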

How the data were processed

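Whole-number read counts per Ensembl gene were deposited, without normalization. Per the labels the authors worked with HISAT2, edgeR and the mouse build mm10, and the study's methods name CLC Genomics Workbench; versions, the counting program, the annotation release, strand and the treatment of multiply mapped reads are not given in the sources used here. Symbols, coordinates and merged exon lengths came from GENCODE M21 (52489 of 52636 identifiers found). The diet is written TJ41 in titles and TJ4 in another label, and both were read as TJ-41. Libraries held 18767295 to 20888042 counts.

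The fit used edgeR 4.0.16 (R 4.3.3) with filterByExpr (minimum count 10, total 15), TMM factors, and the quasi-likelihood test on 4 group means with 4 residual degrees of freedom (common biological coefficient of variation 0.208), in 7 comparisons, with Benjamini-Hochberg adjustment over 20546 genes. A call needed both thresholds of the study, an adjusted p under 0.05 and an absolute log2 fold change above 1. Standard errors were derived from each fold change with its F statistic. The members and lists were chosen with earlier results of these data known. In each comparison members with an unadjusted p under 0.05 were named, or the 3 lowest, and pathway genes where called or as ligands and receptors; genes outside this rule were named after their values were seen. Replicates were not copies, since chi-square per gene was 8.06 to 57.6. Alternatives were DESeq2 1.42.0, edgeR's exact test, other factors and filters, only the 2 groups compared, the adjusted p alone, a replicate block, each library left out and, added after the data were seen, a loess correction for length and GC content (span 0.5). The steps were tested on simulated data. Python 3.11.15 was used for descriptions.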

Additional observations from a re-analysis of the deposited data

How the results depend on the processing

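Of 104 recomputed counts of members called, 102 stayed at 0. Without replicate 1 of the model on the control diet, Isg15 was called for TJ-41 in the model and for TJ-41 averaged over models, so these 2 counts ran from 0 to 1 when libraries were left out. Of 21 results for named members, none changed sign under an alternative. They were picked for the lowest p in the same fit, which favours a stable sign, so this does not describe the members as a whole. For TJ-41 in PBS mice 25 of the 34 members were lower, and 22 were higher without replicate 1 of PBS on the control diet. The adjusted p alone in the reported fit also gave 0 members in each comparison. Ifi44 had an adjusted p under 0.05 with the 2 groups alone, where 716 of 19809 genes did (edgeR's quasi-likelihood test). The other members with such a value had it only without replicate 1 of the model on the control diet. That fit left 1 library in the group, the one that stood apart, and many genes outside the list passed as well. In it the log2 fold change of Bst2 was -0.86 for TJ-41 in the model and -0.66 averaged. That of Parp14 was -0.54 for PPE and LPS on the control diet and -0.36 averaged, and that of Ifih1 was -0.32 averaged. The edgeR exact test gave no value for the averaged comparisons or for the difference of diet effects. The causes of the changes below were not tested.

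Counts over all genes moved more. For PPE and LPS on the control diet (25 genes) they were 147 with all genes that had at least 1 count, 210 with the exact test and 171 with DESeq2. For PPE and LPS on TJ-41 (16 genes) the same alternatives gave 89, 137 and 125, the 2 groups alone gave 248, and the length and GC correction gave 28. For TJ-41 in PBS mice (0 genes) the 2 groups alone gave 5, the exact test 6 and DESeq2 10. For TJ-41 in the model (1 gene) all genes with a count gave 2, the 2 groups alone 0, the exact test 6 and DESeq2 12. For the difference of diet effects (0 genes) all genes with a count gave 6 and DESeq2 17. For PPE and LPS averaged over diets (91 genes) these gave 278 and 245. For TJ-41 averaged over models (0 genes) they gave 1 and 5, and the length and GC correction gave 1.

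With each library left out in turn, genes called ran from 3 to 1343 for PPE and LPS on the control diet, from 2 to 36 on TJ-41, from 15 to 873 averaged over diets, from 0 to 728 for TJ-41 in the model, from 0 to 228 averaged over models and from 0 to 14 for the difference. The counts of 1343, 873, 728, 228 and 14 all came without replicate 1 of the model on the control diet. The lowest counts for PPE and LPS, 3 on the control diet and 15 averaged over diets, came without replicate 1 of PBS on the control diet. The members' median ran from -0.13 to 0.43 for PPE and LPS on the control diet, from -0.45 to 0.20 for TJ-41 in PBS mice and from -0.40 to 0.073 for the difference, with both ends set by the 2 PBS libraries on the control diet. A group left with 1 library was assumed to vary like the others.

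Libraries with the same number were not treated as pairs, since the labels do not say what they share and 3 of 6 correlations of replicate differences over all genes were negative. Over the members none of the 6 was negative. With a replicate block 0 members were called in each of the 7 comparisons, and for TJ-41 in the model 0 genes were called instead of 1, with 7 members at an unadjusted p under 0.05 instead of 2, against 717 of 20546 genes. For TJ-41 averaged over models 6 members were under 0.05 instead of 0, against 419 genes. In this fit the GTPase median for TJ-41 in the model was -0.68.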

Other observations

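Among the further interferon-induced genes, the chemokines Cxcl9 and Cxcl10, which draw T cells and NK cells to sites of interferon gamma, had the lowest p for PPE and LPS on the control diet; they were picked after their values were seen. Cxcl9 was at 0.99 and 1.92 CPM in PBS on the control diet, 0.77 and 2.81 CPM in PBS on TJ-41, 6.41 and 18.3 CPM in the control diet COPD mice model, and 6.26 and 2.56 CPM in the model on TJ-41. On the control diet the model lay above PBS without overlap, with a log2 fold change of 3.08 (SE 0.73, unadjusted p = 0.00216, adjusted p = 0.294, edgeR quasi-likelihood test, Benjamini-Hochberg adjusted), and on TJ-41 the groups overlapped. Cxcl10 was at 1.36 and 1.14 CPM, 1.23 and 1.68 CPM, 2.50 and 5.64 CPM, and 2.71 and 1.69 CPM in the same order, with a log2 fold change of 1.70 on the control diet (SE 0.46, adjusted p = 0.361, edgeR's quasi-likelihood test). Neither was called. Replicate 2 of the model on the control diet was the highest library for both chemokines, while it was below replicate 1 for all 7 GTPases.

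Ifi205, a DNA-binding protein of the interferon-inducible p200 family, was at 17.5 and 15.2 CPM in PBS on the control diet, 16.1 and 19.4 CPM in PBS on TJ-41, 26.5 and 24.7 CPM in the model on the control diet, and 16.3 and 17.3 CPM in the model on TJ-41. Its log2 fold change on TJ-41 in the model was -0.61 (SE 0.19, unadjusted p = 0.00996, adjusted p = 0.991, edgeR's quasi-likelihood test), with both TJ-41 libraries below both control diet libraries. It was also picked after its values were seen.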
